A study of Mus musculus with 144 samples.

Results

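Single microglia of the mouse retina differed widely in how many genes were detected in them, and the cells at both ends of that range are described here. Detection of a gene in a cell meant a value of at least 1 FPKM, a unit that divides the reads of a gene by its length and by all assigned reads of the cell. Gene-rich cells held 4000 or more detected genes and gene-poor cells held 1000 to under 2000. Of 144 cells in all, 37 were gene-rich and 48 were gene-poor, while 55 lay between the classes and 4 lay under 1000 genes. Because the number of detected genes chose the cells, that most genes were found in more gene-rich cells is a property of the choice and not a result.

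The study sorted single Iba1-positive cells from the retina of Iba1-EGFP mice, in which a fluorescent protein marks microglia and related myeloid cells, after PBS or ripasudil, a protein kinase inhibitor. Its title places it after optic nerve injury and names Gpr84, Tnf and Il1a, while the sample labels do not say whether an eye was injured. The groups were PBS (10 to 14 weeks old), 1 mg/kg ripasudil (14 weeks old, here the low dose) and 10 mg/kg ripasudil (12 weeks old, here the high dose), each with 48 cells, 16 on each of 3 plates. The labels name no animal, so each group counts as 1 sample, dose cannot be told apart from age or from the block of wells, which the groups did not share on any plate, and no p-value or standard error is given.

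Microglia are the resident macrophages of the retina, and they survey it with moving processes and switch quickly to cytokine production when disturbed. Immediate early genes are transcribed within minutes of a stimulus without new protein synthesis, and their short-lived mRNAs make their levels change fast. Ribosomal protein and respiratory chain genes, in contrast, are transcribed steadily and give short, stable, abundant mRNAs.

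Gene-rich cells made up 29.2% of PBS cells (14 of 48, exact 95% interval 17 to 44.1%), 33.3% of low-dose cells (16 of 48, 20.4 to 48.4%) and 14.6% of high-dose cells (7 of 48, 6.07 to 27.8%). Gene-poor cells made up 16.7% of PBS cells (8 of 48, 7.48 to 30.2%), 39.6% of low-dose cells (19 of 48, 25.8 to 54.7%) and 43.8% of high-dose cells (21 of 48, 29.5 to 58.8%). The intervals cover counting error only. Plate 1 held no gene-rich high-dose cell and plate 2 held a single gene-poor PBS cell, so values within plates rest on few cells. The gene-rich cell nearest its limit had 4061 detected genes and the next cell below it 3956. The gene-poor cell nearest the upper limit had 1987 detected genes and the next cell above it 2042, and at the lower limit the cells inside and outside had 1006 and 939.

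Depth differed between the classes. Assigned reads had a lowest value of 50760, a median of 2582110 and a highest value of 4274640 in gene-rich cells, against 402666, 1283150 and 3102610 in gene-poor cells. With every cell of at least 300000 reads thinned to 300000, a median of 5110 genes had a read in 34 gene-rich cells, against 1828 in the 48 gene-poor cells, and the ranges (3958 to 8980 against 1039 to 2730) did not overlap. These numbers come from the same cells and genes that chose the classes, so they are a description, and the part of depth in the classes was not tested. With too few reads, 3 gene-rich cells did not enter. Before thinning, 7301 genes had a read in the median gene-rich cell and 3721 in the median gene-poor cell.

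In gene-poor cells the reads were concentrated on fewer genes. The 100 most abundant genes took a lowest share of 18.8%, a median of 36.2% and a highest share of 87.0% of reads in gene-rich cells, against 34.7%, 58.4% and 97.7% in gene-poor cells. The ranges overlapped, and the medians of thinned cells were 36.2% in gene-rich and 58.4% in gene-poor cells. The effective number of genes, which weights each gene by its share of reads, had a median of 1297 in gene-rich and 278 in gene-poor cells. Both measures are tied to the number of detected genes that chose the cells, so they too are a description. Protein-coding genes took a median of 91.8% of reads in gene-rich and 93.3% in gene-poor cells.

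**Figure D1:**
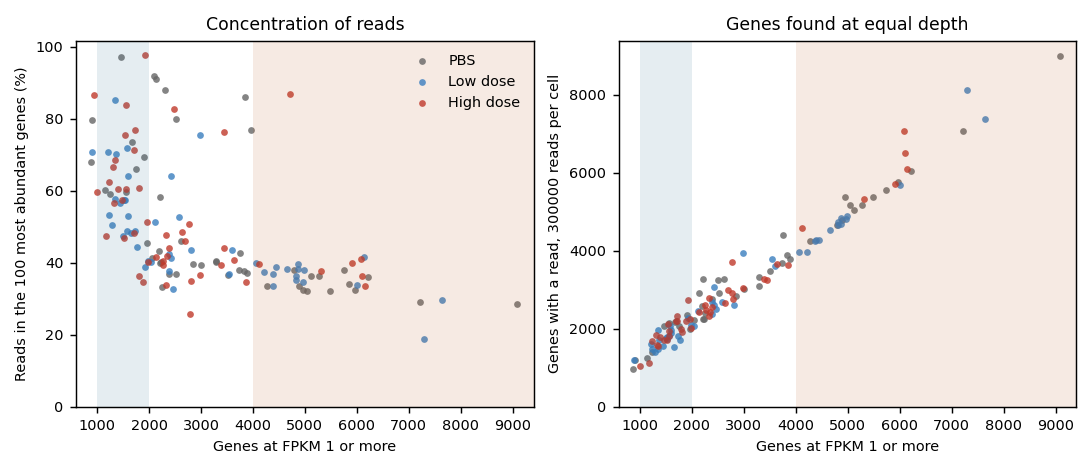
Each point is a cell, plotted by its number of genes at an FPKM of 1 or more (horizontal axis) against the percent of reads in its 100 most abundant genes (left) and against the number of genes with a read after thinning to 300000 reads (right). Colours give the group, the orange band marks gene-rich and the blue band gene-poor cells, and thinned gene numbers of the classes do not overlap (3958 to 8980 gene-rich, 1039 to 2730 gene-poor).

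Microglial markers were found in both classes, most of them in a larger share of gene-rich cells. At least 3 of 12 microglial markers were detected in all 37 gene-rich and all 48 gene-poor cells. Csf1r, the receptor on which microglial survival depends, was found in every cell of both classes. Aif1, which encodes Iba1, was found in 37 of 37 gene-rich and 46 of 48 gene-poor cells, and Tmem119 in 36 and 40 cells. The difference in detection was larger for the purinergic receptor gene P2ry12 (94.6% of gene-rich and 58.3% of gene-poor cells), Trem2 (91.9% and 62.5%), Fcrls (67.6% and 43.8%) and the transcription factor gene Sall1 (51.4% and 10.4%). On the ratio scale defined below, Aif1 had -1.34 and Fcrls 3.02, while P2ry12 had 0.02, Trem2 -0.24 and Sall1 -0.16.

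Markers of other cell types were found in both classes. List medians without the cells that held them are given below for immediate early, cytokine and interferon genes, as is the number of genes that kept their calls. At least 3 neutrophil markers were found in 11 gene-rich and 3 gene-poor cells, with a summed level of 0 to 126781 FPKM (median 63.0) in gene-rich and 0 to 82012 FPKM (median 0.0502) in gene-poor cells. The neutrophil granule gene Camp was at 0 in both classes and Ly6g was found in 1 gene-rich cell. At least 3 Müller glia markers were found in 11 gene-rich cells and no gene-poor cell, with a summed level of 3.42 to 28594 FPKM against 0.480 to 27445 FPKM. Of these markers, Apoe was found in 34 gene-rich and 43 gene-poor cells and Glul in 36 and 13. Slc1a3 was found in 7 and 0 cells, Vim in 4 and 1 and Clu in 3 and 2. Rlbp1, Aqp4 and Dkk3 were detected in no cell of either class. Whether these reads came from Müller glia was not tested. At least 3 rod markers were found in 5 gene-rich and 11 gene-poor cells (summed level 0 to 4070 FPKM against 0 to 14397 FPKM). Separately, 4 gene-rich cells stood apart because 100 or more of 1782 olfactory, vomeronasal and trace amine receptor genes had reads in them. The other gene-rich cells reached at most 41 such genes and the gene-poor cells at most 35. Results that changed without these cells are given with both values.

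To separate share from detection, mean FPKM was taken per class and group and the 3 groups were weighted equally. Genes entered if detected in at least 25% of the 55 cells between the classes, which took no part in the comparison, and 3344 of 55364 genes did. A ratio is gene-rich over gene-poor, on the scale of log2 of mean FPKM plus 1. Genes with a ratio of 1 or more that was above 0 in each group numbered 432 (12.9% of genes tested) and are called higher in share. Genes with a ratio of -1 or less, below 0 in each group, numbered 284 (8.49%) and are called lower in share. A further 935 genes (28%) only gained detection, with at least 25 percentage points more gene-rich cells, more in each group, and a ratio between -0.5 and 0.5. With each cell rescaled instead by a size factor over 410 widely detected genes, the median ratio of all tested genes was -1.23, against -0.10 here, and list medians that then changed sign are given. As reported here, 94.3% of the tested genes were found in more gene-rich cells. Without the 4 cells with chemoreceptor reads, 395, 239 and 780 of these genes kept their calls. Without cells holding 3 or more markers of any other type, 296, 185 and 475 kept them. Only 15 gene-rich and 33 gene-poor cells were then left, and the cause of the loss was not tested.

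The 3 sets differed in how the cells carried them. Genes higher in share were detected in a median of 72.9% of gene-rich and 9.10% of gene-poor cells, and among the cells that had the gene the median ratio was -0.21. In the median gene of this set, the cells that had it thus held no larger share in the gene-rich class. More gene-rich cells with a gene is in part a property of the choice, as 94.3% of all tested genes were found in more of them. How far the higher share goes beyond that choice was not tested. Genes that only gained detection were found in 80.1% of gene-rich and 23.3% of gene-poor cells, with a median level of 27.3 FPKM and 28.5 FPKM over all cells, and among cells with the gene the median ratio was -1.78. That value follows from the definition of the set, since even means with more gene-rich cells leave a higher level in the fewer gene-poor cells that have the gene. Genes lower in share were found in 90.8% of gene-rich and 51.3% of gene-poor cells, and among cells with the gene the median ratio was -2.12. Gene length moved with the calls, with a median of 3076 bases for genes higher, 1031 bases for genes lower and 2120 bases for genes that only gained detection. Its part in the calls was not tested.

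**Figure D2:**
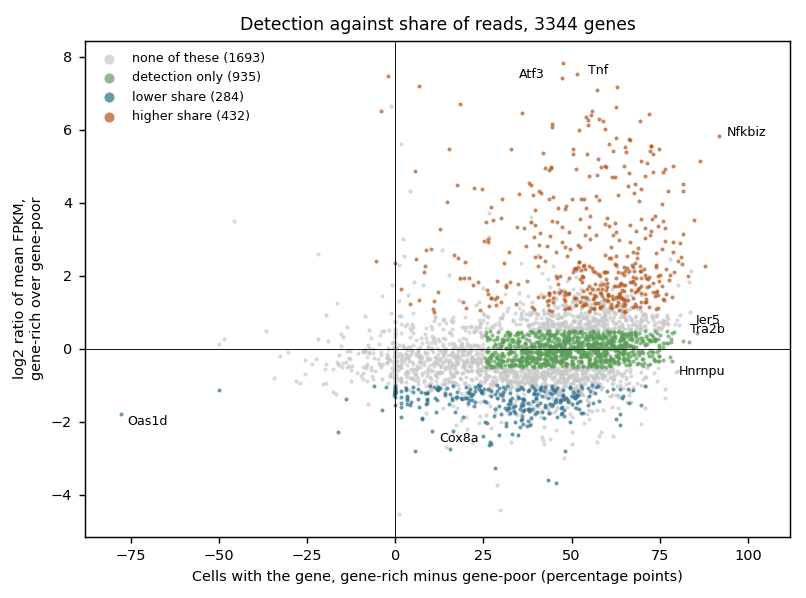
Each point is 1 of the 3344 tested genes, placed by the difference in the percent of cells that had it (horizontal axis, gene-rich minus gene-poor, percentage points) and by the log2 ratio of mean FPKM (vertical axis, gene-rich over gene-poor). Colours mark the 432 genes higher in share, the 284 lower in share and the 935 that only gained detection; Tnf (7.52) stands near the top, Cox8a (-2.26) near the bottom and Oas1d alone at the far left.

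Promoter sequence is shown for 3 genes with the largest positive ratios and for Cox8a, the lowest of the 12 genes named for a negative ratio, since each set differed in one direction as a group. The 150 bases before the annotated start are from RefSeq on build GRCm38.p6, all on the minus strand, at chr17:35202008-35202157 for Tnf, chr1:191183334-191183483 for Atf3, chr7:45526269-45526418 for Ppp1r15a and chr19:7217617-7217766 for Cox8a. Capitals mark the motif searched, TATAAA in Tnf and the cyclic AMP response element TGACGTCA in Ppp1r15a.
Tnf: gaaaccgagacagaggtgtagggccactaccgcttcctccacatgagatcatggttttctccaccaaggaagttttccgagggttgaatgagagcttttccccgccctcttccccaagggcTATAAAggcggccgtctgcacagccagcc
Atf3: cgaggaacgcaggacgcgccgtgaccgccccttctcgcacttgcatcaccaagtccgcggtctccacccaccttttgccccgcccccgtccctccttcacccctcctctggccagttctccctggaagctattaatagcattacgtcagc
Ppp1r15a: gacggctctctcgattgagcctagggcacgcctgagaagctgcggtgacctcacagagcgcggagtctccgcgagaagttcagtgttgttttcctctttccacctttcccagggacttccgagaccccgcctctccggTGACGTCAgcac
Cox8a: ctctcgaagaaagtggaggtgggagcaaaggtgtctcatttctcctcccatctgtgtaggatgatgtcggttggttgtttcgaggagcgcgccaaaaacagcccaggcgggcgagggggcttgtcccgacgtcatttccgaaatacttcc
Neither Atf3 nor Cox8a held either of these motifs, the AP-1 motif TGANTCA or a CArG box in this window, on either strand. In the 250 bases before the start, TGACGTCA was found in 2 of 15 immediate early promoters (13.3%; 15 of 17 genes matched) and in 4 of 28 cytosolic ribosome promoters (14.3%; 28 of 40 matched). It was found in 4.51% of promoters of genes higher in share, 5.6% of those lower in share and 2.13% of those with detection only. Over matched promoters of all tested genes it was 3.02%, and over all 27025 promoters 1.62%. The element was as frequent in the ribosome list as in the immediate early list, and a match is a description of the letters only.

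Immediate early genes stood at the top of the lists. Of 23 listed members 17 entered the comparison, and of these 15 were higher in share, none was lower and 1 only gained detection, with a list median of 3.96 against -0.10 for all tested genes. The higher calls were 88.2% of the tested members, against 12.9% of all tested genes. By group the list median was 5.92 (PBS), 4.82 (low dose) and 2.86 (high dose). The list took a lowest share of 0.00730%, a median of 2.26% and a highest share of 6.68% of reads in gene-rich cells, against 0.000416%, 0.0137% and 2.25% in gene-poor cells. Of the gene-rich cells 21 lay above the highest gene-poor cell, and no gene-poor cell lay above the gene-rich median. Medians by group were 2.16%, 2.67% and 1.55% in gene-rich PBS, low-dose and high-dose cells, against 0.0173%, 0.00718% and 0.0186% in gene-poor cells of the same groups. The cells between the classes had medians of 0.120% at 2000 to under 3000 genes and 1.5% at 3000 to under 4000 genes, so the share was ordered along the whole range of gene number.

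The members were present together in the same cells. Along the series of gene number, the median number of the 17 members at 10 FPKM or more was 1 in gene-poor cells, 5 at 2000 to under 3000 genes, 13.5 at 3000 to under 4000 genes and 16 in gene-rich cells. At least 8 members reached 10 FPKM in 33 of 37 gene-rich and 2 of 48 gene-poor cells. Of the 4 gene-rich cells below that number, 3 were cells with chemoreceptor reads, and without the 4 cells with such reads the median gene-rich share of the list was 2.45%. The largest member took a similar part of the list's reads in both classes, a median of 24.4% in gene-rich and 25.1% in gene-poor cells.

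Atf3 encodes a stress-induced transcription factor of the ATF/CREB family, and it lies at chr1:191170296-191218039 on the minus strand. Its level had a lowest value of 0.791, a median of 550 and a highest value of 1695 FPKM in gene-rich cells, against 0, 0.973 and 17.5 FPKM in gene-poor cells. It reached 100 FPKM in 29 of 37 gene-rich cells and in no gene-poor cell, and its ratio was 7.43 (PBS 6.89, low dose 8.38, high dose 6.93). The ranges overlapped only through the lowest gene-rich cells. Outside the list, Ppp1r15a, whose product GADD34 restarts translation after stress, had 1.33, 244 and 1453 FPKM in gene-rich cells, against 0, 0.534 and 5.12 FPKM in gene-poor cells (ratio 7.18), and it overlaps Tulp2. Ier2, an immediate early nuclear protein gene, had 1.43, 818 and 2117 FPKM in gene-rich cells, against 0, 1.68 and 156 FPKM in gene-poor cells (ratio 6.45). Each of these genes was thus near or below 1 FPKM in the median gene-poor cell while the median gene-rich cell held 244 FPKM or more.

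Other members with higher share were the AP-1 subunits Jun (ratio 4.28), Fos (3.28), Fosb (4.53) and Junb (2.74), and the zinc finger factor Egr1 (4.02). Fosb was found in 25 gene-rich cells and in no gene-poor cell. Feedback genes of the same list were also higher, among them Socs3 (5.09), which restrains cytokine signalling through JAK, Zfp36 (3.47), which speeds the decay of Tnf mRNA, and Ier3 (5.49). Jund, with a ratio of 2.14, had no call because its ratio was -0.38 in high-dose cells. Ier5 only gained detection, in 35 gene-rich and 3 gene-poor cells, with mean levels of 83.5 FPKM in gene-rich and 73.6 FPKM in gene-poor cells. Its gene-poor mean came from few cells, the highest at 1692 FPKM, with a gene-poor median of 0.0572 FPKM. Without the highest cell of each class and group, the list median was 5.74. It was 4.03 without cells holding 3 or more neutrophil markers and 4.65 without those holding 3 or more markers of any other type, which left 15 gene-rich and 33 gene-poor cells.

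Single regulators of MAP kinase and NF-kB signalling were also higher in share. Of the 17 NF-kB subunits and inhibitors listed, only Nfkbiz and Nfkbia entered the comparison. Dusp6, a phosphatase that inactivates ERK, had 0, 59.4 and 757 FPKM as its lowest, median and highest gene-rich values, against 0, 0 and 3 FPKM in gene-poor cells (ratio 6.43). Nfkbiz, an inducible nuclear IkB protein, had 0, 123 and 398 FPKM in gene-rich cells, against 0, 0.264 and 57.0 FPKM in gene-poor cells, and was detected in 36 of 37 and 2 of 48 cells (ratio 5.84). Nfkbia, the inhibitor that NF-kB itself induces, averaged 1009 FPKM in gene-rich and 261 FPKM in gene-poor cells (ratio 1.94). Its direction turned to -0.62 when each cell was rescaled by a size factor. Further genes among the 12 named for a positive ratio were Adamts1 (6.41), a secreted metalloprotease, Gem (6.34), a small GTPase, Klhl6 (6.24), Ccrl2 (6.13), an atypical chemoattractant receptor, and the small nuclear and nucleolar RNAs Rnu2-10 (6.62) and Snord118 (6.15). Mir702 (6.27) lies within Plod3, whose reads cannot be told apart from its own.

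**Figure D3:**
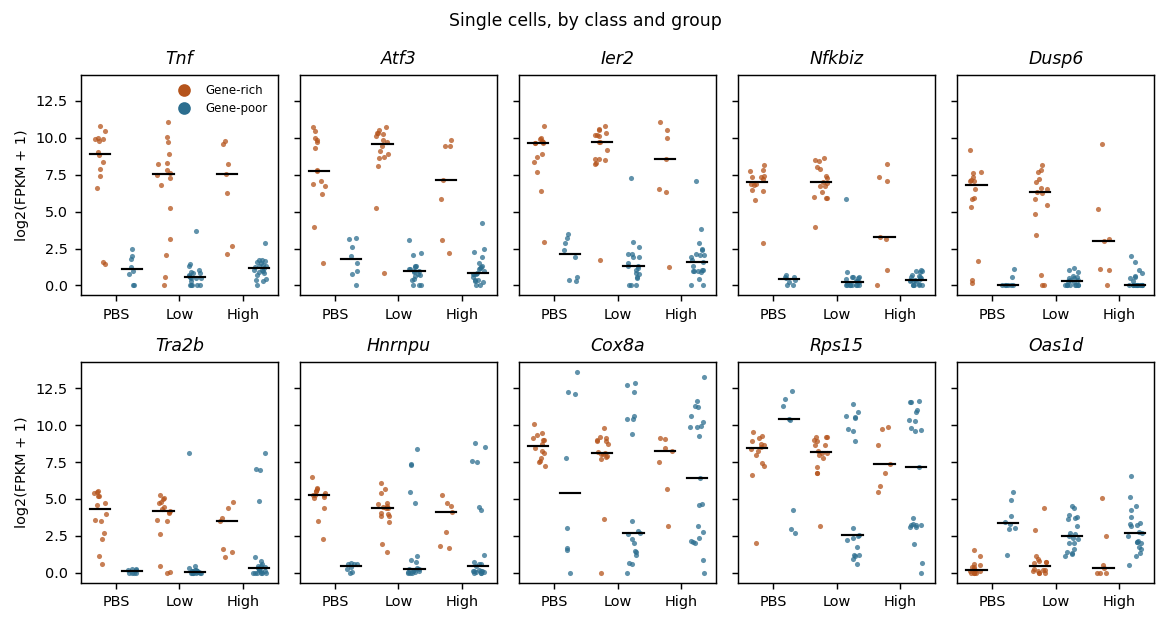
Each point is a cell, with log2 of FPKM plus 1 on the vertical axis and the cells grouped by treatment on the horizontal axis, gene-rich (orange) left of gene-poor (blue) in each group; bars are medians. Tnf, Atf3, Ier2, Nfkbiz and Dusp6 are low in nearly all gene-poor cells, Tra2b and Hnrnpu are low in most but very high in a few, and Cox8a and Rps15 spread from near 0 to far above every gene-rich cell.

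Cytokine and chemokine genes were higher in share in part. Of 19 listed members 11 entered, of which 6 were higher in share, none lower, 1 only gained detection and 4 had no call, with a list median of 2.21 (PBS 5.64, low dose 3.20, high dose 1.26). The higher calls were 54.5% of the tested members, against 12.9% of all tested genes. Tnf, at chr17:35199381-35202007 on the minus strand, encodes tumour necrosis factor and had the largest ratio of the named genes. Its level had a lowest value of 0, a median of 234 and a highest value of 2112 FPKM in gene-rich cells, against 0, 0.876 and 11.7 FPKM in gene-poor cells. It reached 100 FPKM in 26 of 37 gene-rich cells and in no gene-poor cell, and its ratio was 7.52 (PBS 7.90, low dose 7.48, high dose 7.01). Il1a, encoding interleukin-1 alpha, averaged 488 FPKM in gene-rich and 45.4 FPKM in gene-poor cells (ratio 3.40), and a gene-poor cell at 2714 FPKM lay above every gene-rich cell. Gpr84, whose product senses medium-chain fatty acids, averaged 301 FPKM and 64.2 FPKM (ratio 2.21; PBS 7.18, low dose 0.89, high dose 1.97), with a highest value of 1042 FPKM in gene-rich and 1599 FPKM in gene-poor cells. Of the 3 title genes only Tnf was therefore low in all gene-poor cells.

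The chemokine genes Ccl3 (ratio 2.7) and Ccl4 (2.28), whose products attract leukocytes, were higher in share, as was the interferon-inducible Cxcl10 (found in 11 gene-rich and 7 gene-poor cells). Ccl12 was not, averaging 7050 FPKM in gene-rich and 11658 FPKM in gene-poor cells, where it was found in every cell of both classes. The cytokine list took a median of 1.03% of reads in gene-rich and 0.531% in gene-poor cells. It was spread over more members in gene-rich cells, with a median of 8 members at 10 FPKM or more against 3, and the largest member took 39.8% of the list's reads against 86.9%. The list median was 1.87 without the 11 gene-rich and 3 gene-poor cells with neutrophil markers.

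Receptors and interferon genes were higher in part. Of 19 tested receptor genes (25 listed) 7 were higher in share, none lower and 5 only gained detection (list median 0.51). Higher calls were 36.8% and detection-only calls 26.3% of these, against 12.9% and 28% of all tested genes. Tnfrsf1b, encoding TNF receptor 2, had a ratio of 4.70 and was found in 24 gene-rich cells and 1 gene-poor cell. Csf3r, the granulocyte colony-stimulating factor receptor and itself among the neutrophil markers, was found in 28 gene-rich and 2 gene-poor cells. The transforming growth factor beta receptor genes Tgfbr1 (3.36) and Tgfbr2 (1.73) were higher in share. Of 15 tested interferon response genes (22 listed) 6 were higher, none lower and 3 only gained detection (median 0.96), with Ifit3 at 5.47 though found in only 10 gene-rich and 6 gene-poor cells. Higher calls were 40% and detection-only calls 20% of the tested interferon genes. The interferon median was 0.14 without cells holding 3 or more neutrophil markers and -0.38 without cells holding 3 or more markers of any other type. With size factors it was -0.08, beside -0.09 for receptors.

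The direction of the homeostatic microglial genes varied between groups and scalings. Of 22 tested homeostatic genes (24 listed) 5 were higher, none lower and 3 only gained detection, and the list median was 0.58 (PBS 2.01, low dose 0.73, high dose -0.03), with 1.07 without the highest cell of each class and group and -1.38 with size factors. Higher calls were 22.7% and detection-only calls 13.6% of the tested members, against 12.9% and 28% of all tested genes. The list took a median of 4.81% of reads in gene-rich and 4.02% in gene-poor cells. Csf1r had a lowest value of 39.4, a median of 926 and a highest value of 2028 FPKM in gene-rich cells, against 1.76, 436 and 3443 FPKM in gene-poor cells, a ratio of 0.19 with wide overlap. Cst3, the secreted protease inhibitor cystatin C, had 136, 11286 and 44198 FPKM in gene-rich cells, against 92.4, 16689 and 46893 FPKM in gene-poor cells (ratio -0.44). Among the other most abundant genes, Ctss (0.01), Ctsd (0.31) and Ctsb (0.73) encode lysosomal enzymes and C1qb (-0.55) and C1qc (-0.07) complement subunits. None of these passed the fold of 2. Fth1, the ferritin heavy chain, was lower in share with a ratio of -1.20, and it was found in every cell of both classes. Of 17 tested disease-associated genes 2 were higher and 2 lower (median 0.36, and -1.33 with size factors), of 26 lysosomal genes 2 were higher and none lower (0.37, and -1.08), and of 13 complement and Fc receptor genes 3 were higher and none lower (-0.16). These higher calls were 11.8%, 7.69% and 23.1% of the tested members, in that order.

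**Figure D4:**
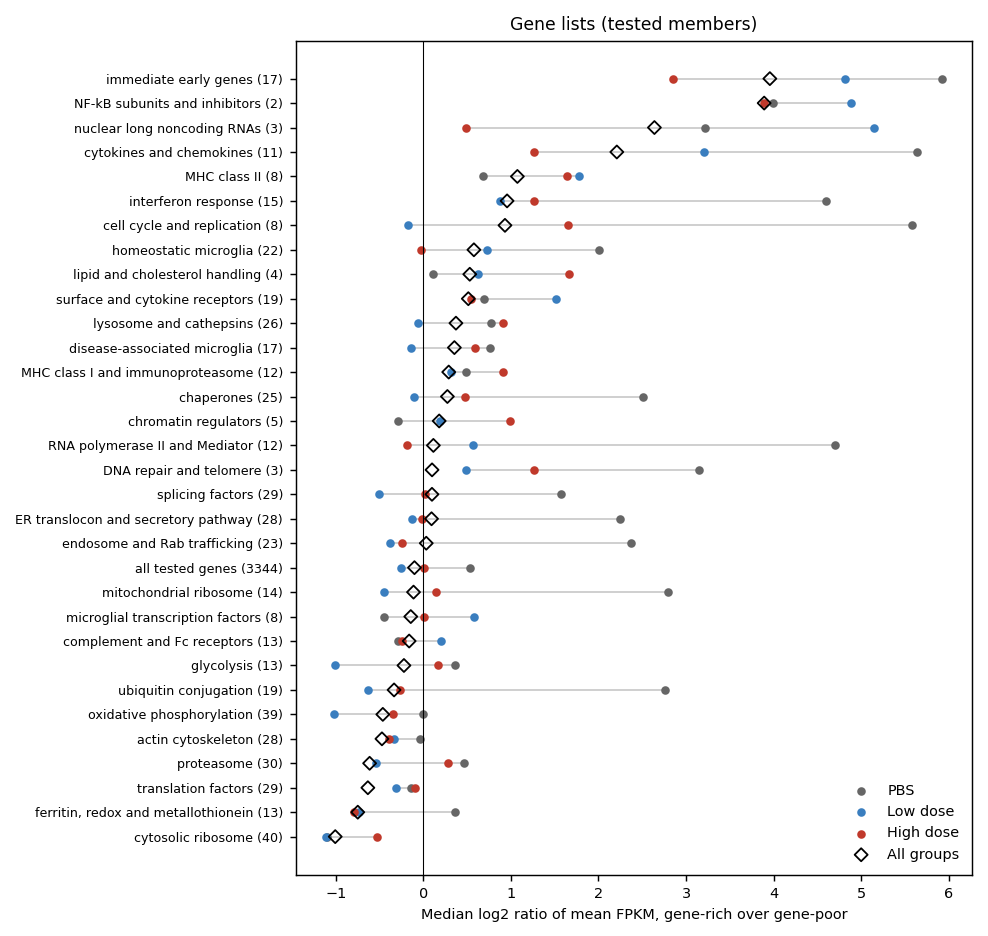
For each gene list (number of tested members in brackets) the horizontal axis gives the median log2 ratio of mean FPKM, gene-rich over gene-poor, over all groups (diamond) and within each group (points). Immediate early genes (3.96) stand at the top and the cytosolic ribosome (-1.01) at the bottom, with all tested genes at -0.10.

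Ribosomal protein genes stood at the other end. Of 40 tested members 17 were lower in share, none was higher and 3 only gained detection, and 39 had a ratio below 0. The lower calls were 42.5% of the tested members, against 8.49% of all tested genes. The list median was -1.01 (PBS -1.10, low dose -1.11, high dose -0.53). The list took a lowest share of 0.123%, a median of 1.88% and a highest share of 4.04% of reads in gene-rich cells, against 0.211%, 3.76% and 11.7% in gene-poor cells, and 41 of 48 gene-poor cells lay above the gene-rich median. Gene-rich cells nevertheless held more of its members, with a median of 40 of 40 at 10 FPKM or more against 22.5 in gene-poor cells. Rps15 had 3.10, 309 and 946 FPKM as its lowest, median and highest gene-rich values, against 0, 79.97 and 5047 FPKM in gene-poor cells (ratio -1.61). For Rps15 the gene-poor mean was higher while the gene-poor median was lower, because gene-poor cells lay on both sides of the gene-rich range.

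Oxidative phosphorylation genes, which encode the respiratory chain and ATP synthase, were mostly lower in share or even. Of 39 tested members 8 were lower, 1 was higher and 15 only gained detection, with a list median of -0.46 (PBS 0.00, low dose -1.02, high dose -0.35). Lower calls were 20.5% and detection-only calls 38.5% of the tested members, against 8.49% and 28% of all tested genes. Without the highest cell of each class and group the list median was 0.06. Cox8a, a cytochrome c oxidase subunit gene at chr19:7215153-7217616 on the minus strand, had a lowest value of 0, a median of 307 and a highest value of 1084 FPKM in gene-rich cells, against 0, 16.6 and 12478 FPKM in gene-poor cells. It reached 100 FPKM in 33 of 37 gene-rich and 21 of 48 gene-poor cells, so its ratio of -2.26 rested on the high gene-poor cells. Atp5h, an ATP synthase subunit gene, was lower with a ratio of -1.64. Uqcrc2, a core subunit of complex III, was the member with higher share (5.77, found in 27 gene-rich and 6 gene-poor cells).

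Some other lists had medians below that of all tested genes while few members were called in either direction. The translation factor list had a median of -0.63 (3 higher, 2 lower and 5 detection only of 29), the proteasome list -0.61 (1, 1 and 9 of 30), the actin list -0.47 (2, 0 and 8 of 28) and the ferritin and redox list -0.75 (0, 2 and 1 of 13). Without the highest cell of each class and group these medians were 0.90, 0.88, 0.21 and 0.11. Over all tested genes 12.9% were higher, 8.49% lower and 28% detection only. Detection-only calls were 28.6% of the actin and 30% of the proteasome list, near the share of all tested genes. They were 17.2% of the translation factor and 7.69% of the ferritin and redox list. Other genes among the 12 named for a negative ratio were Sec61g (-2.04), a subunit of the endoplasmic reticulum translocon, Ptges3 (-1.86), an Hsp90 co-chaperone, Pea15a (-1.65), which binds ERK in the cytoplasm, and the ribosomal protein genes Rpl21 (-1.72) and Rpl31 (-1.62). Sh3bgrl3 (-1.61) and Ubxn11 (-1.56) overlap each other, and their reads cannot be told apart.

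**Figure D5:**
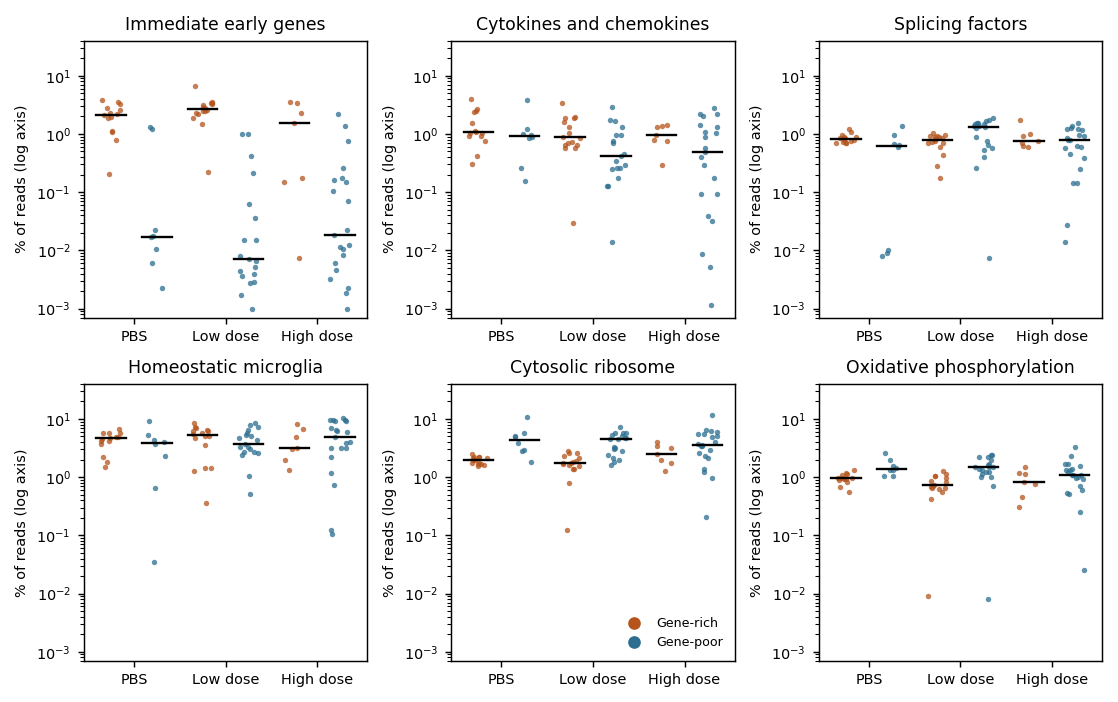
Each point is a cell, with the percent of its reads in a gene list on a log axis and the cells grouped by treatment, gene-rich (orange) left of gene-poor (blue); bars are medians and values below 0.001% are drawn at that level. Immediate early genes have distant medians (2.26% gene-rich and 0.0137% gene-poor) but overlap, with 31 of 37 gene-rich and 5 of 48 gene-poor cells at 1% or more. The ribosome has a higher median in gene-poor cells (1.88% gene-rich and 3.76% gene-poor) and splicing factors have like medians (0.777% gene-rich and 0.784% gene-poor).

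More than any other call, splicing factors only gained detection. Of 38 listed members 29 entered, of which 16 only gained detection, 3 were higher and 2 lower in share, and the list median was 0.10 (PBS 1.57, low dose -0.50, high dose 0.02). It was 0.90 without the highest cell of each class and group and -1.04 with size factors. Detection-only calls were 55.2% of the tested members, against 28% of all tested genes. The share of reads in the list had a median of 0.777% in gene-rich and 0.784% in gene-poor cells. The median gene-rich cell held 23 of the members at 10 FPKM or more and the median gene-poor cell 3, and the largest member took 16.3% of the list's reads in gene-rich and 42% in gene-poor cells. A like total was divided among many members in gene-rich and few in gene-poor cells. More members per gene-rich cell is in part a property of the choice by gene number, here and in the other lists. In the proteasome list the median cell likewise held 21 members at 10 FPKM or more if gene-rich and 3 if gene-poor. Hnrnpu, a nuclear matrix and RNA-binding protein gene, had 1.67, 22.4 and 88.0 FPKM as its lowest, median and highest gene-rich values, against 0, 0.297 and 447 FPKM in gene-poor cells. It stood between 1 and 100 FPKM in all 37 gene-rich cells, while among gene-poor cells 35 were under 1 FPKM, 6 between and 7 at 100 FPKM or more. Tra2b, a splicing activator gene, had 0, 15.3 and 45 FPKM in gene-rich cells, against 0, 0.0907 and 279 FPKM in gene-poor cells, of which 42 were under 1 FPKM and 4 at 100 FPKM or more.

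The other genes with the largest gain in cells were Erp29 (found in 36 gene-rich and 10 gene-poor cells), a chaperone of the endoplasmic reticulum, Mtdh (32 and 2), Ube2v1 (32 and 5), a ubiquitin-conjugating cofactor, Ewsr1 (33 and 5), an RNA-binding protein, Mbnl1 (34 and 10), a splicing regulator, Trpc4ap (33 and 7) and Mlec (33 and 9), a lectin of the endoplasmic reticulum. Their ratios lay between -0.22 and 0.48, but not in each group. Hnrnpu, for example, had ratios of PBS 4.90, low dose -0.74, high dose -1.80, and Ewsr1 had -1.33, 2.92 and 0.77. An even mean over groups therefore joined groups in which a few high gene-poor cells were present with groups in which they were absent.

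For 2827 of the 3344 tested genes (84.5%) at least 1 gene-poor cell lay above every gene-rich cell. These were 28 of 29 splicing factors, 38 of 40 ribosomal and 37 of 39 oxidative phosphorylation genes, and 5 of 17 immediate early, 8 of 15 interferon response, 4 of 8 MHC class II and 7 of 11 cytokine genes. In lists with few members it was 0 of 2 NF-kB, 1 of 4 lipid handling and 1 of 3 nuclear noncoding RNA genes. Conversely, the highest gene-poor cell lay below the gene-rich median for 70 genes (2.09%), and 5 of the 17 immediate early genes (29.4%) were among them. Egr1 showed this with a gene-rich median of 848 FPKM and a highest gene-poor value of 759 FPKM, and Socs3 with 126 FPKM and 115 FPKM. This way of counting was chosen after the values were seen. There were 37 gene-rich and 48 gene-poor cells, so the highest value had more chances among gene-poor cells.

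Cells of a class also resembled each other to different degrees. The median correlation of log2 FPKM plus 1 between cells, given as a description, was 0.547 for pairs of gene-rich cells, 0.332 for pairs of gene-poor cells and 0.330 between the classes. Depth and the number of genes at 0 enter such values. For the 38 genes detected in every cell of both classes, the median coefficient of variation was 0.528 in gene-rich and 1.07 in gene-poor cells. Of the 38, 33 varied more in gene-poor cells. Values barely above the detection limit still enter, as for Csf1r, which ranged from 1.76 to 3443 FPKM in gene-poor cells.

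Of 15 listed nuclear noncoding RNAs only 3 entered, and 2 were higher in share (66.7%, against 12.9% of all tested genes). The list median was 2.64, with 1.79 when the cells with chemoreceptor reads were left out. It was 0.84 without cells holding 3 or more markers of any other type. Malat1, a long RNA retained in nuclear speckles, averaged 559 FPKM in gene-rich and 88.9 FPKM in gene-poor cells (ratio 2.64) and was found in 37 of 37 and 24 of 48 cells. Rn7sk, the RNA that holds the elongation factor P-TEFb inactive, had a ratio of 3.58, and 1.79 without the cells with chemoreceptor reads. Outside the comparison, and leaving out gene models, clones and pseudogenes, 13 genes were picked for detection in at least 60% of gene-rich and no gene-poor cells. Among them were Mlxipl (30 of 37 cells), a glucose-responsive transcription factor, the small nucleolar RNA gene Rnu3b2 (30), the nucleolar GTPase gene Gnl3 (28), Plekho2 (25) and Rab8b (25). That each was found in 0 of 48 gene-poor cells is a property of this choice and not a result.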

How the data were processed

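Each sample is 1 sorted cell, lysed, amplified in the same tube and tagmented with the Nextera XT kit, per the labels' protocols, without named molecular identifiers. The authors deposited FPKM values for 55364 genes in every cell, with gene lengths. On build GRCm38.p6 (mm10), featureCounts 1.6.1, STAR 2.7.2b, cutadapt 1.16, Trimmomatic 0.36 and Trim Galore 0.4.4 are named in the submitters' processing notes. Settings and use of strand are not given in the sources used here. Reads of overlapping genes were therefore treated as not separable. Mitochondrially encoded genes were not analysed here.

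FPKM multiplied by length gave each gene's share of reads, and its most frequent positive value in a cell was taken as 1 read. A median of 53.0% of values above 0 were whole reads within 0.01 read (37.5 to 70.5% over cells), and others were fractions of a read, so no count model was used. Depth per cell was 30204 to 4668730 assigned reads.

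Cells, gene lists and alternatives were chosen with earlier results of these data known. Groups follow the labels and weigh equally in every mean. Ratios carry a pseudocount of 1 FPKM, and genes entered at 1 FPKM in 25% of the cells in neither class. There were 33 function lists, of which those the text names are reported, and 19 marker lists. Intervals of cell shares are exact (Clopper-Pearson, 95%). No test was run, since the labels name no animal.

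Single genes were named by rule, leaving out gene models, clones and pseudogenes: the 12 largest positive and 12 largest negative ratios with the same sign in every group, on every plate and without the highest cell (found in at least 50% of the gene-rich or gene-poor cells), the 10 largest gains in detection only, the 10 most abundant genes, the title genes, the highest and lowest member of each list, and up to 6 genes outside the comparison found in 60% of gene-rich and no gene-poor cell. List members named beside them are given as part of their list, and a few genes that the rule picked are not reported here. Alternatives were the pseudocount, the filter, the weighting, the highest cells, size factors, thinning, the class limits, the detection limit, each plate and each group left out, and cells with markers of other types left out. Scripts were tested on simulated data. Python 3.11.15, numpy 2.4.6 and pandas 2.3.3 were used.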

Additional observations from a re-analysis of the deposited data

Results flagged for a closer look

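Sets of 4 to 10 cells of a class and group were screened for a cell lying far from the rest. Only the 8 gene-poor PBS and the 7 gene-rich high-dose cells were such sets. Each was screened on 6 measures, which made 12 screens in all, and 4 of them flagged a cell. Chance flags about 1 in 20 separate screens, but here the measures of a set shared the same cells. Among the 8 gene-poor PBS cells, the highest share of reads in cytokines and chemokines was 3.846% and the highest share in the cytosolic ribosome was 10.62%. Among the 7 gene-rich high-dose cells, the highest share in splicing factors was 1.755% and the highest share in the 100 most abundant genes was 86.96%. The highest cell stood apart from the others of its set in each of these.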

How the results depend on the processing

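No paired analysis was possible because the labels tie no cell to an animal and cells of different groups share only a plate, with no well position in common. Over 24 alternatives, the counts of called genes were within 1.5 times the reported count in 76 cases and outside it in 20. List medians moved by less than 1 SD in 606 cases, moved further in 73 and changed sign in 3. Ratios of named genes did so in 1888, 226 and 20 cases. The SD here was that of the 3 group values in the main comparison, so it was wide where the groups differed. It was 2.19 for the cytokine and 1.08 for the splicing factor median. The cytokine median of 4.13 without plate 3, against 2.21, thus counted as a move within 1 SD, and the first kind is no measure of stability. A change of sign was counted only for called genes and for list medians of 1 or more, or -1 or less. Changes of sign in medians nearer 0 were more common and are counted among the first 2 kinds. The homeostatic median, for example, was 0.58 as reported here and -1.38 with size factors. The causes were not tested.

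The 432 genes higher in share became 4713 with no filter on detection, 230 with equal weight for each group and plate, 1060 without the highest cell of each class and group and 252 with size factors. The 284 genes lower in share became 472 when cells were pooled, 21 with group and plate weights, 113 without the highest cells and 978 with size factors. The 935 genes that only gained detection became 1621 with no filter, 346 with group and plate weights and 408 with size factors. Leaving out a plate or group gave 364 to 792 genes higher (792 without the low dose, 737 without the high dose and 732 without plate 3), 224 to 473 lower (473 without the high dose) and 687 to 902 with detection only.

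Without the highest cells the median of immediate early genes was 5.74 and that of oxidative phosphorylation genes 0.060, and the ratios of Cst7 (0.36) and Sod1 (0.11) turned positive. With size factors the medians were 1.57 for immediate early genes, -3.03 for the ribosome, -1.92 for oxidative phosphorylation, -1.04 for splicing factors and -0.050 for MHC class II, and Nfkbia (-0.62) turned negative. The MHC class II median, 1.07 in the main comparison, was -0.14 with gene-rich cells from 5000 genes. Without cells holding 3 or more markers of any other type it was 0.10. With a plate or group left out it ranged from -0.54 (without plate 2) to 2.22 and Sod1 from -2.22 to 2.57 (without plate 3).

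Cells at 3000 to under 4000 genes were also set over cells at 2000 to under 3000. These cells lay in neither class, but they decided which genes were tested and were likewise split by gene number. This comparison gave 169 genes higher, 549 lower and 329 with detection only, and an immediate early median of 1.70. There Cox8a (1.39), Oas1d (0.98), Aldoa (0.15) and Maf (1.86) were positive, and Gem (-0.93), Mir702 (-0.18), Lilrb4a (-0.60), Hmgb2 (-1.46), Mrpl12 (-0.59), Uqcrc2 (-0.81), Pfkfb3 (-0.091), Eif2s1 (-0.92), Supt4a (-0.44), Dnajc3 (-0.83), Xrcc6 (-0.66) and Cebpa (-0.010) negative, each the reverse of gene-rich over gene-poor. Of the 432 genes higher in share 235 (54.4%) had a positive ratio there, where 31.5% of all tested genes did. Leaving out cells with chemoreceptor reads, neutrophil markers or any other type's markers, and the unthinned deep cells, were alternatives chosen after seeing the data. Each gene-rich high-dose value rests on 7 cells and each gene-poor PBS value on 8.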

Other observations

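A small set of genes ran against the choice of cells and was found in fewer gene-rich than gene-poor cells. Picked after the values were seen, 23 genes were detected in at least 25 percentage points fewer gene-rich cells, 13 of them processed pseudogenes, 5 miscellaneous RNAs, 2 long intergenic noncoding RNAs and 3 protein-coding genes. Oas1d, a member of the oligoadenylate synthetase family of interferon-induced genes, was detected in 7 of 37 gene-rich and 47 of 48 gene-poor cells. Its median level was 0.187 FPKM in gene-rich and 5.61 FPKM in gene-poor cells, and any read of it was present in 27 and 48 cells. Between the classes it was detected in 9 of 16 cells at 3000 to under 4000 genes and in 26 of 39 cells at 2000 to under 3000 genes. Dcaf1, a substrate receptor of a ubiquitin ligase, was detected in 3 gene-rich and 23 gene-poor cells, and Olfr77, an olfactory receptor gene, in 0 and 14 cells. The noncoding 4930543K20Rik was detected in 9 gene-rich and 36 gene-poor cells. These genes had low levels in most cells that had them, and whether reads of other loci are counted at them was not tested.

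Gene length ordered the ratios over all tested genes. The median ratio was -0.31 in the shortest of 5 length bins and 0.17 in the longest. The share of genes called higher was 6.58% in the shortest and 22.1% in the longest bin, and the share called lower was 12.0% and 4.33%.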
